A study of Arabidopsis thaliana with 9 samples.

Results

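The rows examined here were 88 rows of an expression array that its annotation pairs with exactly 1 gene whose locus number starts with AT2G07, a stretch of chromosome 2 of Arabidopsis thaliana. They covered 70 loci and were 88 of the 16746 rows paired with exactly 1 gene, out of 38408 rows in the deposited table. A row is a set of probes summarised into 1 log2 value per array. All 88 were kept, with no filter on low values. The groups were roots of the mutant hcr1-1, roots of the mutant hcr1-2 and roots of the wild type Col-0, with 3 arrays each. All plants were aged 21 days and grew in hydroponics with ample potassium under hypoxia (pO2 11.1 ± 1.1%), so no sample had normal oxygen. Each array held RNA from a pool of 5 plants, and by their titles the replicates are biological. The labels used here do not say what lesion each allele carries or whether a line was complemented, and HCR1 is a Raf-like protein kinase acting on the water permeability of roots.

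Plant mitochondria keep a small genome of their own, which encodes core subunits of the respiratory complexes, some ribosomal proteins and parts of the machinery that matures cytochrome c. Most other mitochondrial proteins are encoded in the nucleus and imported. In the Col-0 accession the nucleus also holds a long, near-identical insertion of mitochondrial DNA close to the centromere of chromosome 2, and many AT2G07 loci are annotated within it. Oxygen is needed in the last step of respiration, in which complex IV passes electrons to it.

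The annotation showed copies through its pairings, and loci that it does not pair may be copies too. On at least 1 row of the table it paired 16 AT2G07 loci with the symbol of a mitochondrial gene, and 5 of these loci also had a row of their own among the 88. The 5 were AT2G07785 (paired with nad1, a subunit of complex I, and with rps7, a ribosomal protein), AT2G07695 (cox2, a subunit of complex IV), AT2G07773 (rps12, a ribosomal protein), AT2G07715 (the ribosomal protein gene rpl2, and orfX, now mttB, a membrane transport protein) and AT2G07815 (ccb452, now ccmFC, of cytochrome c maturation). In the gene order of chromosome 2, the 16 paired loci ran from AT2G07773 to AT2G07734, and 50 other rows, of 34 loci, lay within that span. Another 19 rows lay before the span and 14 after it. The annotation gives none of the 88 rows a gene symbol, so products of the other loci are not named here. For reference there were 29 rows that the annotation assigns to an AT2G07 locus and a mitochondrial gene together, 24 rows of a mitochondrial gene alone and 63 of a chloroplast gene alone. Hybridisation to these rows cannot tell apart RNA from a nuclear copy and RNA from the mitochondrial gene where the sequences are the same.

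Array medians over all rows lay between 3.41 and 3.48, and pairwise Pearson correlations between arrays, across rows, ran from 0.984 to 0.993. The probe row of HCR1 (AT3G24715) had 3.46, 3.25 and 2.36 in hcr1-1, 4.24, 4.38 and 4.30 in hcr1-2, and 4.60, 4.85 and 4.88 in Col-0. Both mutants thus lay below the wild type on every array, hcr1-1 by more than hcr1-2. Weights estimated from how closely each array followed its group were lowest for hcr1-2 replicate 1, at 0.47, and between 0.79 and 1.47 for the others. Of 8 root markers and 8 shoot markers listed, 2 of each were paired with a row. None differed between genotypes past the adjusted threshold of 0.05 used below, where 0.00% of all tested rows did. Values without detection calls do not show whether those markers were present.

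In hcr1-1, most AT2G07 rows lay above Col-0. The median log2 difference over the 88 rows was 0.24, against 0.00 over all tested rows, and 70 of the 88 were above 0. No row passed an adjusted p of 0.05 (limma with Benjamini-Hochberg adjustment over the 16746 rows), and the background share was 0.00%. At an unadjusted p under 0.05, 38 of the 88 were higher and 0 lower, where 1.95% of all tested rows were higher and 1.28% lower. In 45 of the 88 all 3 hcr1-1 arrays lay above all 3 Col-0 arrays, where 5.18% of all tested rows did, and in 0 they lay below, where 4.02% did. The 88 rows are not independent, since copies share sequence, 15 loci had several rows and 10 rows held the same values as another of the 88. Counted with identical rows taken once, 43 of 83 rows lay wholly above Col-0, and 35 of the 70 loci had such a row. In bulk RNA of whole roots, a difference in the share of a cell type and a difference in RNA per cell cannot be told apart.

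With all rows taken, medians in hcr1-1 lay further apart by position along the chromosome than by pairing. Pairing here is that of the annotation alone. Unpaired loci may be copies too, so this is no comparison of copies with other loci. Paired loci and the rows within the span had a median of 0.31 over 55 rows, 49 of them above 0 and 36 wholly above Col-0. The 19 rows before the span had a median of 0.04, with 1 row wholly above Col-0. The 14 rows after it had a median of 0.27, with 8 wholly above. Of all tested rows, 5.18% lay wholly above Col-0. The 5 paired rows had a median of 0.28 and the other 83 a median of 0.23, with ranges of 0.03 to 0.38 and -0.34 to 0.78. These differences between classes were not tested. Brightness differed with position: 15 of the 19 rows before the span were at or below the median row mean of the table, against 4 of 55 paired or within it and 4 of 14 after it. Among the 4 brighter rows before the span the differences were 0.08 at AT2G07170, -0.01 at AT2G07180, 0.04 at AT2G07360 and 0.27 at AT2G07440. With dim rows left out, the median of the 14 remaining rows outside the span on both sides was 0.31, and that inside was 0.34. Over the 55 rows paired or within the span, the difference in hcr1-1 had a Pearson r of 0.02 and a Spearman rho of -0.10 with the mean level of the row. Those correlations are across rows on shared arrays and are a description only.

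**Figure D1:**
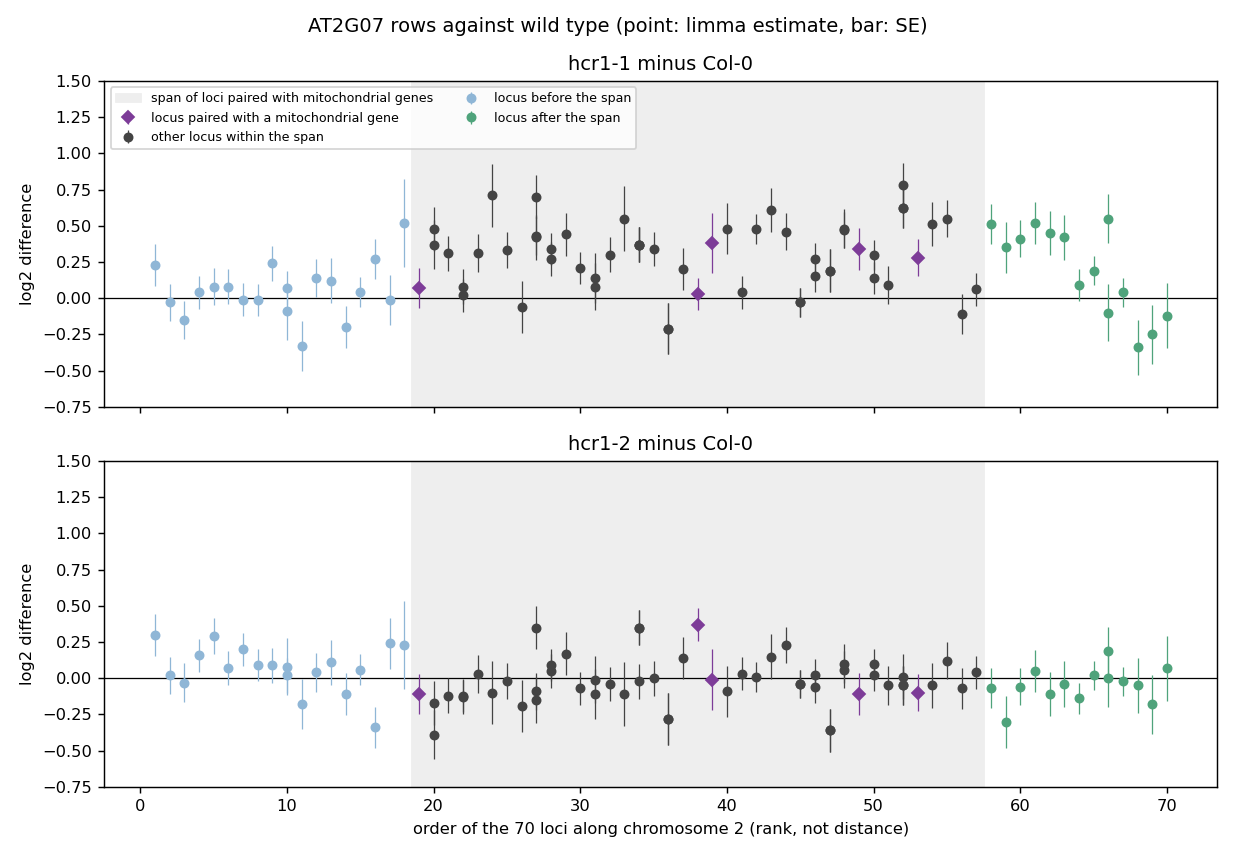
Log2 difference from Col-0 of the 88 AT2G07 rows in hcr1-1 (top) and hcr1-2 (bottom), in the order of their 70 loci along chromosome 2; points are limma estimates, bars standard errors, and grey marks the span between the first and last locus paired with a mitochondrial gene. In hcr1-1, 49 of the 55 rows in the grey span lie above 0, and the first rows after it do too; in hcr1-2, 22 of the 55 lie above 0.

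Values above 0 in hcr1-1 did not end at the last paired locus. The span was set by the paired loci, and where the inserted mitochondrial DNA ends was not examined. Loci after the span may therefore lie in the insertion too. AT2G07825, AT2G07827, AT2G07830, AT2G07787, AT2G07775 and AT2G07806, the first 6 loci after the span, had differences in hcr1-1 of 0.51, 0.35, 0.41, 0.52, 0.45 and 0.42. At the far end AT2G07750 had -0.34, AT2G07760 -0.25 and AT2G07981 -0.12. These 9 loci were chosen after their values were seen. Counting the span by locus number in place of chromosome order, an alternative added after seeing the data, gave a median of 0.04 for the rows outside it.

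The array means showed which samples carried the difference. As the mean over the 55 rows paired or within the span, less the mean of the 3 Col-0 arrays, replicates 1, 2 and 3 of hcr1-1 stood at 0.47, 0.20 and 0.21. The same mean was -0.12, -0.02 and 0.08 in hcr1-2, and 0.05, 0.00 and -0.05 in Col-0. All 3 hcr1-1 arrays lay above the other 6, and hcr1-1 replicate 1 stood above both other hcr1-1 arrays. Without that array the median over these rows was 0.23, and 23 of the 88 rows were higher at an unadjusted p under 0.05 in place of 38. Within a genotype the mean over the 55 rows had an SD of 0.11 between arrays, and a single row among the 88 a median SD of 0.159, against 0.175 over all tested rows. The part of any batch, growth tray or extraction in this was not tested, since the labels give none.

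Rows that name mitochondrial genes also had their highest array means in hcr1-1, and chloroplast rows stood closer to 0 in that genotype. The 29 rows shared by an AT2G07 locus and a mitochondrial gene had array means of 0.46, 0.20 and 0.23 in hcr1-1, -0.13, -0.08 and 0.08 in hcr1-2, and 0.05, -0.01 and -0.04 in Col-0. Some of the 29 are repeated with the same values, and each repeat was counted in those means. The 24 rows of a mitochondrial gene alone had 0.28, 0.08 and 0.14 in hcr1-1, -0.18, -0.07 and 0.07 in hcr1-2, and 0.03, 0.04 and -0.07 in Col-0. The 63 chloroplast rows had 0.08, -0.04 and 0.00 in hcr1-1, -0.15, -0.03 and 0.09 in hcr1-2, and 0.05, 0.00 and -0.05 in Col-0. In every one of these sets hcr1-1 replicate 1 was the highest hcr1-1 array and hcr1-2 replicate 1 the lowest hcr1-2 array. The rows before the span went otherwise, with -0.06, 0.18 and 0.04 in hcr1-1 and 0.18, 0.01 and 0.02 in hcr1-2.

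**Figure D2:**
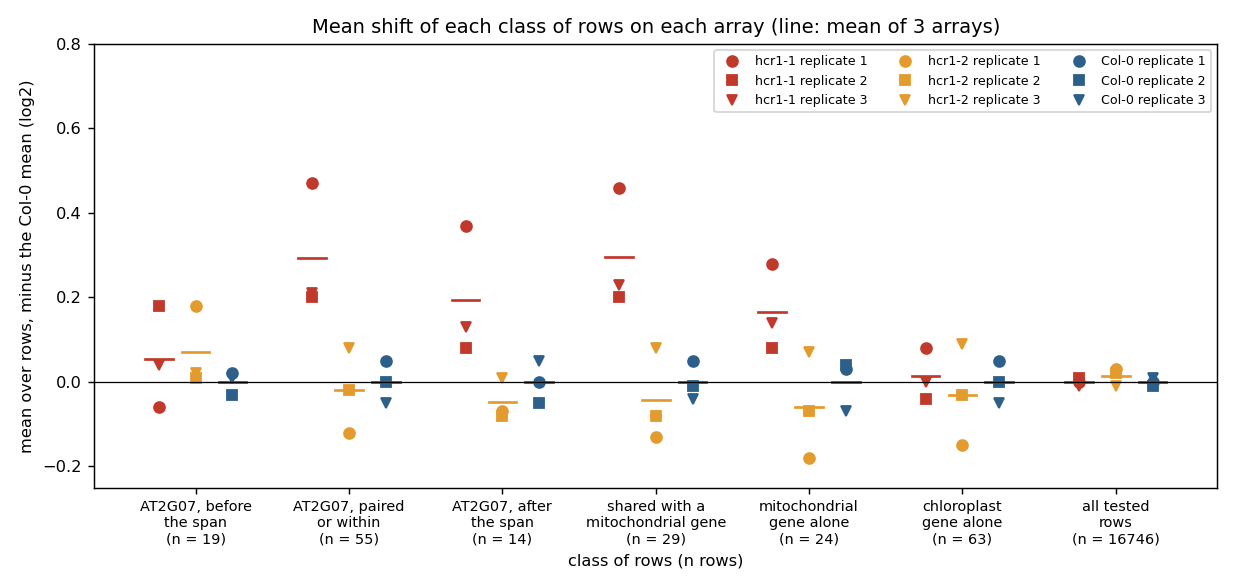
Mean over the rows of each class on each array, less the mean of the 3 Col-0 arrays (log2), for hcr1-1, hcr1-2 and Col-0 from left to right in each class; symbols mark the replicate and lines the mean of 3 arrays. For the 55 AT2G07 rows paired or within the span the hcr1-1 arrays lie at 0.47, 0.20 and 0.21, above all hcr1-2 and Col-0 arrays, and the means over all tested rows lie close to 0.

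The 5 paired loci differed among themselves. AT2G07785 (nad1 of complex I, and rps7) had 6.52, 6.06 and 6.20 in hcr1-1, 5.43, 5.95 and 6.25 in hcr1-2, and 6.05, 6.02 and 5.59 in Col-0. The hcr1-1 arrays lay just above those of Col-0, while hcr1-2 spread across both. The difference was 0.38 in hcr1-1 (SE 0.209, unadjusted p = 0.099) and -0.01 in hcr1-2. In hcr1-1 it was 0.23 without Col-0 replicate 3 and 0.25 without hcr1-1 replicate 1, and in hcr1-2 its sign turned without hcr1-2 replicate 1, at 0.22. Shared rows of nad1 with AT2G07785 had 0.10, 0.03 and 0.10 in hcr1-1. That of rps7 with AT2G07599, AT2G07696 and AT2G07785 had 0.25.

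AT2G07695, paired with cox2, had 3.02, 3.01 and 3.09 in hcr1-1, 3.39, 3.26 and 3.49 in hcr1-2, and 3.15, 2.97 and 2.90 in Col-0. Here the hcr1-2 arrays were the high ones, all above Col-0, and hcr1-1 overlapped Col-0. The difference was 0.03 in hcr1-1 and 0.37 in hcr1-2 (SE 0.113, unadjusted p = 0.00672, limma adjusted p = 0.903). The row shared by AT2G07695 and cox2 together went the other way, with 0.23 in hcr1-1 and -0.11 in hcr1-2. The row of AT2G07695 alone was a dim one, with a mean of 3.14 against a table median of 3.41.

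AT2G07773, paired with rps12, had 10.07, 9.87 and 9.81 in hcr1-1, 9.53, 9.69 and 9.99 in hcr1-2, and 9.95, 9.88 and 9.70 in Col-0. The 3 genotypes overlapped, with differences of 0.07 in hcr1-1 (95% interval -0.24 to 0.38) and -0.11 in hcr1-2 (95% interval -0.41 to 0.20). Shared rows that name rps12 with AT2G07675 and AT2G07773 had 0.38 in hcr1-1 and 0.20 in hcr1-2.

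AT2G07715, paired with rpl2 and orfX, had 8.14, 7.75 and 7.84 in hcr1-1, 7.28, 7.39 and 7.71 in hcr1-2, and 7.62, 7.61 and 7.48 in Col-0. Every hcr1-1 array lay above every other array. Its difference was 0.34 in hcr1-1 (SE 0.144, unadjusted p = 0.0368) and -0.11 in hcr1-2. Without hcr1-1 replicate 1 the first was 0.22, and the second was -0.02 without hcr1-2 replicate 1 and -0.24 without hcr1-2 replicate 3. The row of rpl2 with AT2G07715 had 0.11 in hcr1-1, and that of orfX with AT2G07715 had 0.28.

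AT2G07815, paired with ccb452 of cytochrome c maturation, had 5.16, 5.04 and 5.11 in hcr1-1, 4.49, 4.92 and 4.76 in hcr1-2, and 4.75, 4.96 and 4.76 in Col-0. Again the hcr1-1 arrays were above the other 6, with a difference of 0.28 (SE 0.129, unadjusted p = 0.0541), against -0.10 in hcr1-2. The row shared by AT2G07815 and ccb452 had 0.17 in hcr1-1 and -0.10 in hcr1-2. Over the 5 loci, all hcr1-1 arrays lay above Col-0 in 3, and all hcr1-2 arrays in 1, where 5.18% and 6.10% of all tested rows did.

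Among the rows of loci that the annotation does not pair with a mitochondrial gene, AT2G07722 had the smallest p in hcr1-1. Its first row had 9.35, 9.13 and 9.06 in hcr1-1, 8.17, 8.32 and 8.74 in hcr1-2, and 8.32, 8.55 and 8.33 in Col-0. The hcr1-1 arrays were the 3 highest, and those of hcr1-2 spread on both sides of Col-0. The difference in hcr1-1 was 0.78, or 1.72-fold (SE 0.155, 95% interval 0.44 to 1.12, unadjusted p = 0.000335, limma adjusted p = 0.9999). Both other rows of AT2G07722 held the same values as each other and had 0.62 in hcr1-1 (unadjusted p = 0.000825).

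AT2G07674 had 3 rows. The first had 4.30, 3.77 and 4.01 in hcr1-1, 3.61, 3.78 and 3.64 in hcr1-2, and 3.46, 3.11 and 3.39 in Col-0. Here both mutants lay above the wild type on every array. The differences were 0.70 in hcr1-1 (SE 0.150, unadjusted p = 0.000602) and 0.35 in hcr1-2 (unadjusted p = 0.0376). The other 2 rows of AT2G07674 had 0.42 and 0.43 in hcr1-1, and -0.15 and -0.09 in hcr1-2. The first row was dimmer, with a mean of 3.67 against a table median of 3.41, where the others had 7.72 and 7.68.

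AT2G07667 had 4.63, 4.55 and 4.63 in hcr1-1, 4.11, 4.13 and 4.17 in hcr1-2, and 4.10, 4.24 and 4.04 in Col-0. The hcr1-1 arrays stood clear of the other 6, which overlapped. Its difference was 0.48 in hcr1-1 (SE 0.103, unadjusted p = 0.000657) and 0.01 in hcr1-2 (95% interval -0.22 to 0.23). The range without each array in turn was 0.44 to 0.53 in hcr1-1.

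Some loci within the span stayed close to Col-0. AT2G07707, whose 2 rows held the same values, had 11.29, 11.22 and 11.25 in hcr1-1, 11.23, 11.21 and 11.30 in hcr1-2, and 11.27, 11.34 and 11.24 in Col-0. All genotypes overlapped there, at -0.03 in hcr1-1 and -0.04 in hcr1-2. AT2G07698 had 0.04 in hcr1-1, AT2G07732 had 0.06, and the 2 rows of AT2G07777 had 0.08 and 0.02. Beyond the span AT2G07741 had 0.04. The row means of AT2G07707 and AT2G07741, 11.26 and 11.30, were near the highest of all tested rows, 11.32. Whether rows that bright can show a difference was not tested. Row means were 9.83 at AT2G07698, 8.81 at AT2G07732, and 5.59 and 9.85 at AT2G07777. Rows of 1 locus could also differ: at AT2G07739 one row had -0.10 in hcr1-1 and the other 0.55. These 6 loci were chosen after their values were seen.

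**Figure D3:**
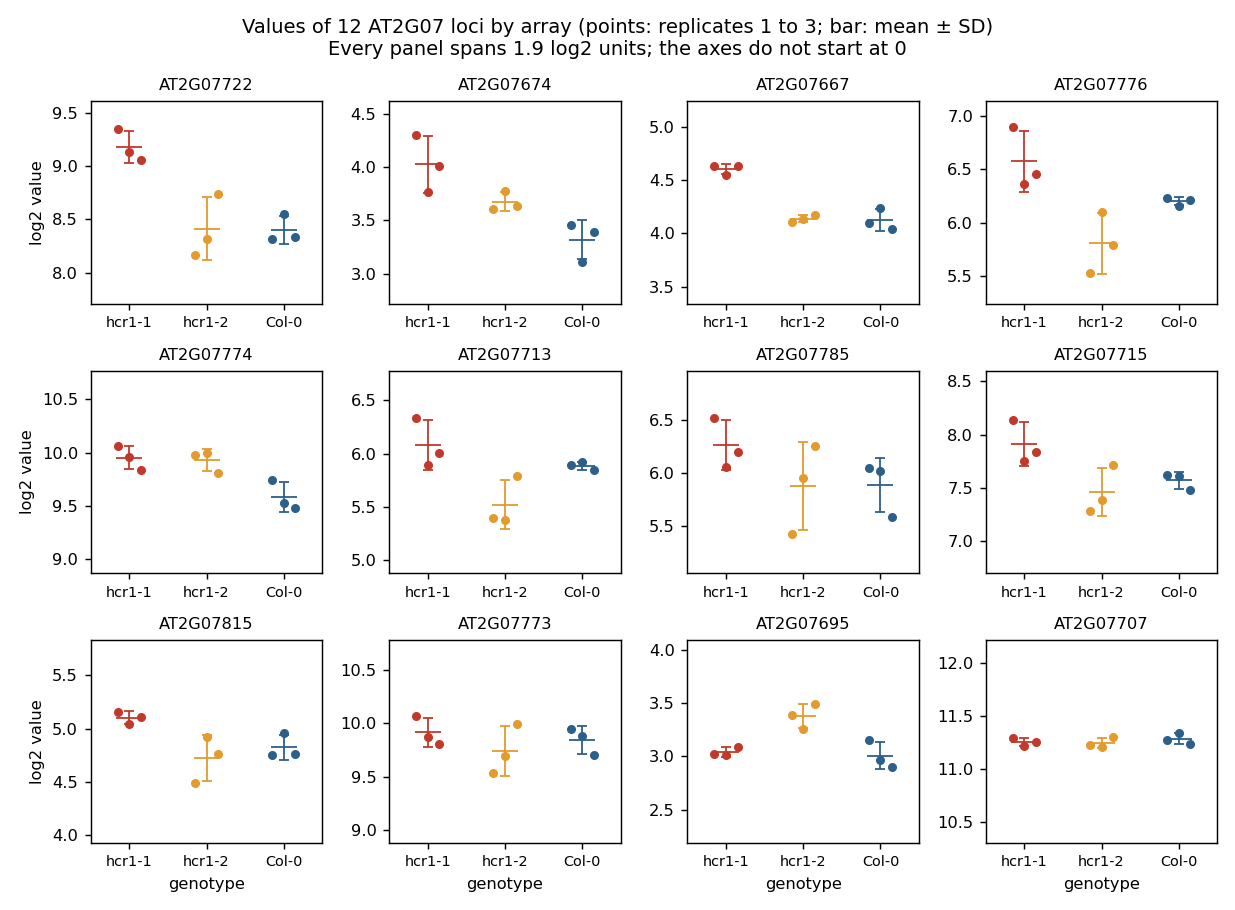
Log2 values of 12 AT2G07 loci in hcr1-1, hcr1-2 and Col-0, 1 panel per locus; points are the 3 arrays, bars the mean ± SD, and each axis spans the same number of log2 units without starting at 0. AT2G07722, AT2G07674 and AT2G07667 have all hcr1-1 points above Col-0, AT2G07695 has all hcr1-2 points above Col-0, and AT2G07707 overlaps in all genotypes.

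Rows that name mitochondrial genes were uneven too. Of the 29 shared rows all were above 0 in hcr1-1, with a median of 0.23 and 20 wholly above Col-0, where 5.18% of all tested rows were. Rows repeated with the same values were each counted, and the repeated ones had differences above that median. They were AT2G07701 with nad1, AT2G07702 with nad1 at 0.49, rps12 with AT2G07675 and AT2G07773 at 0.38, and cob with AT2G07718 and AT2G07727 at 0.35. The row of AT2G07701 and nad1, listed more than once with the same values, had 7.93, 7.30 and 7.75 in hcr1-1, 6.67, 6.72 and 7.07 in hcr1-2, and 7.03, 6.91 and 6.87 in Col-0, a difference of 0.73 in hcr1-1. In complex IV the 2 rows of AT2G07687 and cox3 had 0.19 and 0.44, and in complex V the 2 rows of AT2G07671 and atp9, a subunit of its membrane ring, had 0.05 and 0.51. So rows that name the same pair of genes did not give the same difference. Those rows differed in level too. In Col-0 the cox3 row with 0.19 had 9.24, 9.39 and 9.30, and that with 0.44 had 6.80, 7.02 and 6.74. The atp9 row with 0.05 had 11.63, 11.54 and 11.47 in Col-0, and that with 0.51 had 9.12, 8.82 and 8.71. The part of the level in this was not tested. Shared rows were not among those tested, and the rows of mitochondrial genes named with values, shared or alone, were chosen after their values were seen.

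Of the 24 rows of a mitochondrial gene alone, 21 were above 0 in hcr1-1, with a median of 0.17. Wholly above Col-0 were 16 of them, where 5.18% of all tested rows were, and 4 were higher at an unadjusted p under 0.05, where 1.95% were. Rows of nad1 ran from -0.01 to 0.42. The maturase gene matR had 0.28, and ccb206, of cytochrome c maturation, had 0.30. At the low end cox1 of complex IV had -0.03, nad4L of complex I -0.02 and atp1 of complex V 0.08. In Col-0, cox1 had 11.23, 11.27 and 11.25 and nad4L 11.20, 11.37 and 11.21, near the highest row mean of all tested rows, 11.32. There atp1 had 9.31, 9.40 and 9.30. Whether rows as bright as the first 2 can show a difference was not tested. In hcr1-2 the same 24 rows had a median of -0.06. The 63 chloroplast rows had a median of 0.02 in hcr1-1, with 7 wholly above and 2 wholly below Col-0, where 5.18% and 4.02% of all tested rows were.

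In hcr1-2, the AT2G07 rows lay on both sides of Col-0. The Col-0 arrays are the same as those used for hcr1-1, so the comparisons are not independent. The median over the 88 rows was -0.01, against 0.01 over all tested rows, and 42 of the 88 were above 0. No row passed the adjusted threshold (limma, Benjamini-Hochberg; background 0.00%). At an unadjusted p under 0.05, 5 were higher and 4 lower, where 3.05% of all tested rows were higher and 2.35% lower. All hcr1-2 arrays lay above Col-0 in 8 rows and below in 8, where 6.10% and 4.34% of all tested rows did. The 55 rows paired or within the span had a median of -0.04, and the 5 paired rows -0.10, with values between -0.11 and 0.37. Without hcr1-2 replicate 1 both medians changed sign, to 0.03 and 0.02, and the paired median was -0.19 without hcr1-2 replicate 3 and -0.05 and -0.03 without Col-0 replicates 1 and 2. The count at an unadjusted p under 0.05, 9 in both directions together, was 4 without Col-0 replicate 1, 5 without Col-0 replicate 3 or hcr1-2 replicate 2 and 6 without hcr1-2 replicate 3.

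Among the rows nearest to the threshold in hcr1-2 after AT2G07695 were 2 identical rows of AT2G07774, which had 10.06, 9.96 and 9.84 in hcr1-1, 9.98, 10.00 and 9.81 in hcr1-2, and 9.74, 9.53 and 9.48 in Col-0. Both mutants lay above every Col-0 array, with differences of 0.37 in hcr1-1 and 0.35 in hcr1-2 (SE 0.118, unadjusted p = 0.0125). The remaining row of AT2G07774 had 0.37 in hcr1-1 and -0.02 in hcr1-2. On the lower side AT2G07713, again with 2 identical rows, had 6.34, 5.89 and 6.01 in hcr1-1, 5.40, 5.38 and 5.79 in hcr1-2, and 5.89, 5.92 and 5.85 in Col-0. The hcr1-2 arrays were all below Col-0 and hcr1-1 overlapped it, with differences of -0.36 in hcr1-2 (unadjusted p = 0.0308) and 0.19 in hcr1-1.

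With the alleles set against each other, most rows in the span were lower in hcr1-2. Over the 88 rows the median of hcr1-2 minus hcr1-1 was -0.22, against 0.01 over all tested rows, and 70 of the 88 were below 0. None passed the adjusted threshold (background 0.00%), and the smallest adjusted p among the 88 was 0.744 (limma, Benjamini-Hochberg). At an unadjusted p under 0.05, 36 of the 88 were lower in hcr1-2 and 1 higher, where 2.31% of all tested rows were lower and 3.02% higher. In 42 rows every hcr1-2 array lay below every hcr1-1 array and in 2 above, where 4.54% and 5.31% of all tested rows did. The median was -0.28 in the 55 rows paired or within the span, 53 of them below 0, and -0.30 in the 14 after it, against 0.07 in the 19 before it. The 5 paired rows had a median of -0.38, which was -0.16 without hcr1-2 replicate 1 and -0.25 without hcr1-1 replicate 1. In 38 of the 88 rows every hcr1-1 array lay above all 6 others, hcr1-2 and Col-0 together, where 1.28% of all tested rows did.

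At AT2G07776 the alleles lay on opposite sides of Col-0. Its first row had 6.90, 6.36 and 6.46 in hcr1-1, 5.53, 6.10 and 5.79 in hcr1-2, and 6.23, 6.16 and 6.21 in Col-0. The hcr1-1 arrays were above Col-0 and the hcr1-2 arrays below it, without overlap. Between the alleles the difference, hcr1-2 minus hcr1-1, was -0.77 (SE 0.169, unadjusted p = 0.000754), and against Col-0 it was 0.37 in hcr1-1 and -0.39 in hcr1-2. AT2G07722 had -0.77 in its first row and -0.67 in the others, and AT2G07667 had -0.47. The largest difference of the 88 was that of AT2G07672 at -0.80 (SE 0.219, unadjusted p = 0.00355), chosen after its value was seen.

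**Figure D4:**
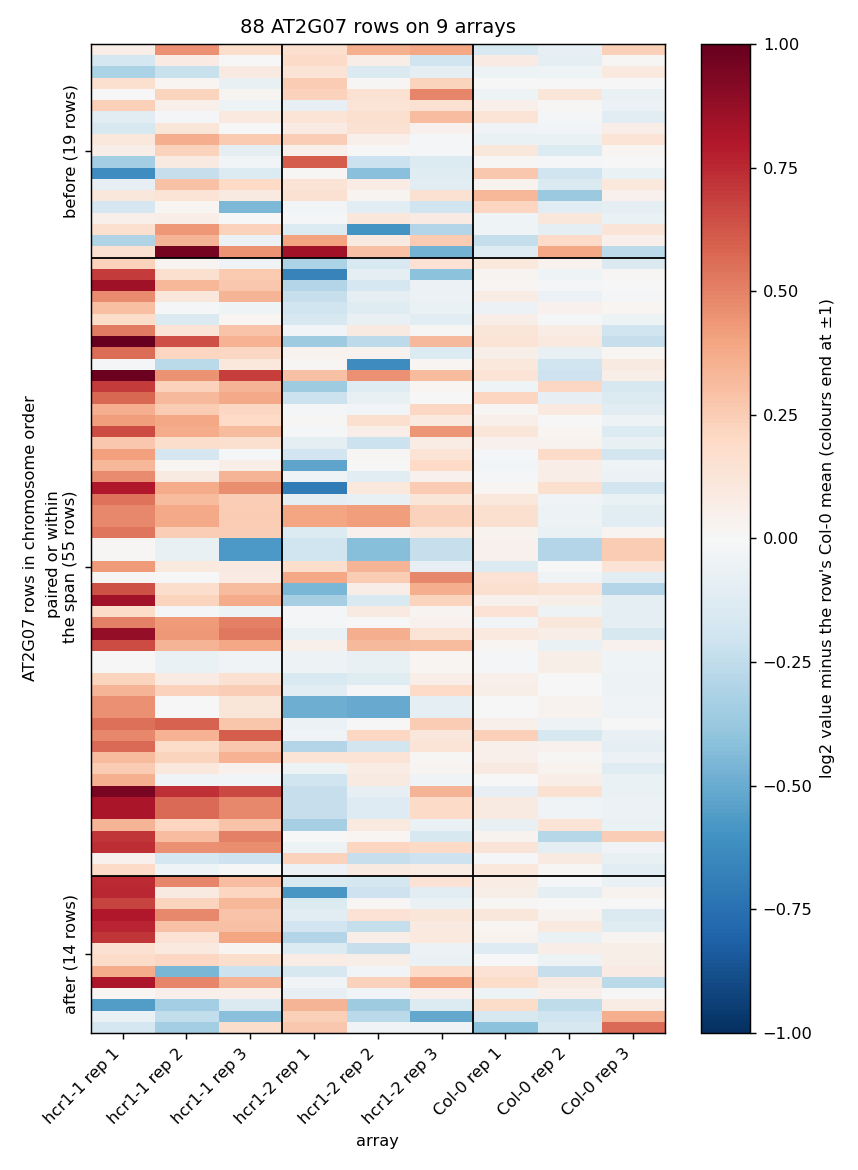
Log2 value of each of the 88 AT2G07 rows on each of 9 arrays, less the row's Col-0 mean, with rows in chromosome order and the hcr1-1, hcr1-2 and Col-0 arrays from left to right; red is above and blue below Col-0, and colours end at ±1. Within the span most rows are red on the 3 hcr1-1 arrays, deepest on replicate 1, and blue is most frequent on hcr1-2 replicate 1.

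Averaged over hcr1-1 and hcr1-2, the difference from Col-0 had a median between those of the single alleles. It was 0.11 over the 88 rows, against 0.01 over all tested rows, and none passed the adjusted threshold (limma, Benjamini-Hochberg; background 0.00%). At an unadjusted p under 0.05, 17 were higher and 0 lower, where 2.08% and 1.64% of all tested rows were. The count in either direction was 8 without Col-0 replicate 3, 10 without Col-0 replicate 2 or hcr1-1 replicate 1, and 11 without hcr1-2 replicate 3. All 6 mutant arrays lay above the 3 Col-0 arrays in 4 rows, where 1.11% of all tested rows did, and below in 0 rows, where 0.711% did. The 4 were the first row of AT2G07674 at 0.53 (SE 0.130), the 2 identical rows of AT2G07774 at 0.36 (SE 0.102) and AT2G07706 at 0.34 (SE 0.109). AT2G07706 had 6.63, 6.32 and 6.36 in hcr1-1, 6.03, 6.30 and 6.29 in hcr1-2, and 6.0, 5.91 and 6.02 in Col-0, so that 1 hcr1-2 array stood barely above the highest wild type one. AT2G07728, the next by p, had 0.34 (SE 0.110), with 5.81, 5.53 and 5.54 in hcr1-1, 5.02, 5.29 and 5.27 in hcr1-2, and 5.20, 4.98 and 5.04 in Col-0.

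Nuclear genes whose products work with the mitochondrial ones gave medians nearer to 0 in hcr1-1. Of the listed nuclear genes, 5 of 13 for complex I were measured, with a median of 0.01, and 4 of 5 for complex II, which has no subunit copied among the paired loci, with -0.10. For complex III and cytochrome c, 7 of 9 were measured, with a median of -0.02, and for complex IV and its assembly 5 of 10, with 0.02. For complex V, 5 of 8 had a median of 0.08. The 6 measured of 19 genes for mitochondrial transcription, splicing and RNA decay had 0.03. Of the 12 alternative oxidases and NAD(P)H dehydrogenases, which bypass the proton-pumping complexes, 4 were measured, with 0.11. They were the dehydrogenases NDB2, NDB3, NDB4 and NDC1, and no alternative oxidase on the list was measured. The 1 of 8 genes for mitochondrial DNA maintenance, OSB1, had -0.04. Of the 37 rows in these lists 0 passed the adjusted threshold in any comparison (limma, Benjamini-Hochberg), where 0.00% of all tested rows did. At an unadjusted p under 0.05, 0 were higher or lower in hcr1-1 against Col-0, where 1.95% of all tested rows were higher and 1.28% lower. In hcr1-2 against Col-0, 1 was lower, where 2.35% of all tested rows were, and in hcr1-2 against hcr1-1, 4 were lower, where 2.31% of all tested rows were.

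The mitochondrial stress response list, with 3 of 6 genes measured, held the single values furthest from 0. AT5G09570 had a difference of 0.66 in hcr1-1 (unadjusted p = 0.000799) and 0.06 in hcr1-2. For AT5G51440, which encodes a heat shock protein of mitochondria, the differences were -0.29 in hcr1-1 and -0.80 in hcr1-2 (unadjusted p = 0.035). Neither passed the adjusted threshold (background 0.00%), and both were named after their values were seen.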

How the data were processed

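Total RNA of roots was hybridised to Affymetrix Arabidopsis Gene 1.1 ST array strips, 1 array per sample. The deposited values were log2, made by the authors with RMA in Affymetrix Expression Console, per the submitters' processing notes. RMA corrects background, gives all arrays 1 distribution, which removes differences in total signal, and condenses each probe set. No tool version or build was given in the sources used here. Precision is limited by the number of arrays.

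Names came from the platform annotation, and 86 of the 88 AT2G07 rows matched a RefSeq gene table (TAIR10.1) by Entrez number, used for names and gene order only. Of 38408 rows, 758 were paired with several genes and 20904 were not in that annotation. A locus counted as paired where any row joins it to a mitochondrial gene symbol. Matching by protein sequence was not run, so copies that the annotation does not pair were not found. Samples were grouped by title.

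The test was limma 3.58.1 in R 4.3.3 on all 9 arrays, genotype only, two-sided, with Benjamini-Hochberg adjustment over the 16746 rows at 0.05, checked on simulated data. Class medians and array means are descriptions without a test. The replicate samples are called biological by the labels, and each was a pool of 5 plants. The p-values set a difference against the spread between these pools, which limma estimates with information shared across rows. Deviations of same-numbered arrays of 2 genotypes had correlations of -0.189 to 0.162 over all tested rows, and of -0.648 to 0.203 over the 88. These correlations cannot show whether same-numbered samples were handled together, and the main fit did not pair them. Slides and scan dates were not analysed here.

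Members and lists were chosen with earlier results of these data known. Named rows were the paired loci and the 5 AT2G07 rows with the smallest p in each comparison, and others are said to be chosen after their values were seen. As alternatives, the fit was run on only the arrays compared and with the replicate block, quantile normalization, median centring, dim rows left out, all rows tested, trended and robust variances, array weights, each array left out in turn and, added after seeing the data, the span by locus number and counts at an unadjusted p.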

Additional observations from a re-analysis of the deposited data

How the results depend on the processing

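No AT2G07 row passed the adjusted threshold under any of the alternatives run, in any of the 4 comparisons. Over all tested rows, 1 passed for hcr1-1 with trended and robust variances, and leaving out each array in turn gave 0 to 1 for hcr1-1 and 0 to 2 for both alleles, against 0 with all arrays. With the rows below the median left out, the median of the AT2G07 loci not paired with a mitochondrial gene was 0.34 in hcr1-1 against Col-0, in place of 0.23, and -0.34 in hcr1-2 against hcr1-1, in place of -0.22. For the rows outside the span it was 0.31 in hcr1-1, -0.03 in hcr1-2 and -0.41 between the alleles, and the span by locus number gave 0.04 in hcr1-1 and 0.05 between the alleles, fewer dim rows and other loci being the construction of each. Leaving out each array in turn, the median of the paired rows ranged from -0.42 to -0.16 between the alleles and from 0.22 to 0.34 in hcr1-1, and that of the 55 rows paired or within the span from 0.23 to 0.37 in hcr1-1. The count of AT2G07 rows higher in hcr1-1 at an unadjusted p under 0.05 ranged from 23 to 40, lowest without hcr1-1 replicate 1, and for both alleles the count in either direction ranged from 8 to 18. In hcr1-2 against Col-0 the median of the paired rows ranged from -0.19 to 0.02 and that of the 55 rows from -0.08 to 0.03, and with array weights the paired median was -0.03. Some differences near 0 changed sign: AT2G07773 in hcr1-1 was -0.01 after quantile normalization, and AT2G07785 in hcr1-2 was 0.03 with array weights and 0.01 after quantile normalization. With arrays left out, AT2G07785 in hcr1-2 reached 0.08 and 0.06 without Col-0 replicates 1 and 2 and 0.22 without hcr1-2 replicate 1, AT2G07815 in hcr1-2 was 0.02 also without hcr1-2 replicate 1, and AT2G07695 in hcr1-1 was -0.02 without Col-0 replicate 3. Over all arrays left out in turn, AT2G07785 in hcr1-2 ranged from -0.19 to 0.22, AT2G07815 in hcr1-2 from -0.20 to 0.02 and AT2G07695 in hcr1-1 from -0.02 to 0.10. The cause was not tested. With the replicate number as a block, the count of AT2G07 rows past the adjusted threshold was 0 in each comparison, and at an unadjusted p under 0.05 34 were higher in hcr1-1 and 11, in place of 17, passed in either direction for both alleles. The median half-width of the 95% interval for hcr1-1 was 0.309 on the log2 scale, against a median difference of 0.24 over the 88 rows.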
